A study of Homo sapiens with 18 samples.

Results

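A set of 10 genes of the cellular response to low oxygen were followed in U251 cells exposed to the kinase inhibitor enzastaurin or to its solvent DMSO. They were listed by name (HIF1A, EGLN1, EGLN3, ADM, NDRG1, BNIP3, BNIP3L, ANKRD37, KDM3A and CA9), and a probe set counted only where the platform annotation gave it 1 gene symbol. Of the 10, 9 had such a probe set, out of 19775 genes with one on the array, and CA9 was not analysed here. Where a gene had several probe sets, the one with the highest mean log2 level over all arrays was its main probe set and the others served as a check. All 9 main probe sets passed the filter on low levels described at the first test.

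The cells, U251, are a long-established line from a human glioblastoma. The series asked which transcripts respond to enzastaurin, a protein kinase C beta inhibitor, and its title names GSK3 inhibition, MYC, NF-kB and glucose. The groups were enzastaurin for 4 h and DMSO for 4 h, enzastaurin and DMSO for 10 h, and enzastaurin and DMSO for 18 h, each with 3 Affymetrix HG-U133 Plus 2.0 arrays. All cells were grown in RPMI medium with serum, the labels name no oxygen level and no dose of enzastaurin, and the study is on 1 cell line. Nothing in the labels says that the 3 arrays of a group came from separate cultures, so the spread behind each p-value may be technical. The 18 arrays had median intensities from 99.2 to 125.9, and their number limits the precision. Of 8 glial and glioma markers, 6 (VIM, CD44, NES, SOX2, SOX9 and FABP7) lay above the level filter, while GFAP (mean 27.8) and S100B (mean 12.0) lay below it. Of 14 measured markers of other cell types, 5 lay above it (KRT18, PECAM1, SNAP25, MBP and MOG). The leukocyte marker PTPRC averaged 41.2, EPCAM 43.7 and CDH5 13.9, all below the filter. The summed level of these 14 markers was 7329 to 7736 on the enzastaurin arrays at 18 h and 8337 to 8913 on the DMSO arrays, most of it KRT18, and the part of such markers in the results was not tested. RNA came from whole cultures, so a change in a share of the cells and a change in the RNA of every cell cannot be told apart.

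HIF1A encodes the oxygen-regulated subunit of hypoxia-inducible factor 1 (HIF-1), which pairs with ARNT and binds short DNA elements beside its target genes. In oxygenated cells, prolyl hydroxylases encoded by EGLN1 and EGLN3 modify the HIF-1 alpha protein, which is then tagged by the VHL ubiquitin ligase and destroyed, so that HIF-1 is controlled largely at the protein level and less by HIF1A mRNA. The hydroxylase genes are themselves HIF targets. ADM (a vasodilator peptide), NDRG1 (a stress-responsive protein of the NDRG family), BNIP3 and BNIP3L (mitochondrial receptors for autophagy), ANKRD37 (an ankyrin repeat protein), KDM3A (a histone H3 lysine 9 demethylase) and CA9 (a surface carbonic anhydrase) are widely used as readouts of hypoxia, in glioblastoma as in other tumours. Several of them also answer to other signals. NDRG1, for example, is known to be repressed by MYC.

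The HIF binding element has the core ACGTG or GCGTG, read on either strand, and 4 promoters are shown as examples. In the tests below, BNIP3 and ADM were called lower with enzastaurin and EGLN1 higher, while ANKRD37 had no called difference from DMSO. A link between promoter and response was not tested. Each is the RefSeq window of 300 bases, from 250 bases before the gene's start to 50 after it, in GRCh38.p14, printed along the gene's own strand with the cores in capitals (a capital CACGT or CACGC is a core on the opposite strand, and CACGTG is a core on both strands at once). The BNIP3 window is chr10:131981874-131982173 (minus strand), that of ANKRD37 chr4:185396591-185396890 (plus strand), that of ADM chr11:10304823-10305122 (plus strand) and that of EGLN1 chr1:231422238-231422537 (minus strand).
BNIP3: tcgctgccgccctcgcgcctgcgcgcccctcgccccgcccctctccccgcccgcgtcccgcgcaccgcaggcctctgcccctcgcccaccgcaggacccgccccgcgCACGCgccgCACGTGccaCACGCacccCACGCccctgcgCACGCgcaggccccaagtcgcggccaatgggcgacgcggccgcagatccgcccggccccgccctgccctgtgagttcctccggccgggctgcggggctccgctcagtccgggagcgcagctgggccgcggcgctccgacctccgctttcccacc
ANKRD37: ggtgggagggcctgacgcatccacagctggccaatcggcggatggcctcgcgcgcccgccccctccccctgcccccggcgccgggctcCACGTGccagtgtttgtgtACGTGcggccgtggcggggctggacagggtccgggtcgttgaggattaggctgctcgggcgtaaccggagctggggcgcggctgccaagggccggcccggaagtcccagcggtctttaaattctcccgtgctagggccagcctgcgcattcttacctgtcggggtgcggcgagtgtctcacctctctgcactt
ADM: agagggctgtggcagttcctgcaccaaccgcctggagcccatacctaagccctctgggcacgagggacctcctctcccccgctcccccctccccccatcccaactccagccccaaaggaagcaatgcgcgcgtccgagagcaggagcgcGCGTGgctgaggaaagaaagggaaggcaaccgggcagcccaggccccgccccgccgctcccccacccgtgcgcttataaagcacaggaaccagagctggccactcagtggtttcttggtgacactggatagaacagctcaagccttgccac
EGLN1: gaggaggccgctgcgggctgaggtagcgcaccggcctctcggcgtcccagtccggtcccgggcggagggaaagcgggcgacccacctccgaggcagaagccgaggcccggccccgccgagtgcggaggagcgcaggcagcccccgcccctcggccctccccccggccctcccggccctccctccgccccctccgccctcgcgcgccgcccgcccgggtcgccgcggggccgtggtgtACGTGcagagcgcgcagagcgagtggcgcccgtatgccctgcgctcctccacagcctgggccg

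The BNIP3 window held 2 ACGTG and 4 GCGTG matches, all between 143 and 104 bases before the start. The ANKRD37 window held 3 ACGTG matches, 162, 161 and 143 bases before it. In both windows an overlapping pair of ACGTG matches, one on each strand, formed CACGTG, the sequence that is also the canonical E-box of MYC and related factors. The ADM window had 1 GCGTG match, 101 bases before the start, and the EGLN1 window 1 ACGTG match, 13 bases before it. The EGLN3 window held neither core, a HIF1A window held 1 GCGTG match, and 2 overlapping windows of KDM3A shared 1 GCGTG match. The promoters of NDRG1 and BNIP3L were not searched. Such matches are common: of 35116 promoter windows of the same length, 21.4% held ACGTG, 36.5% GCGTG, 48.4% either, and 7.26% CACGTG. They describe letters in a window and show no binding.

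Differences between enzastaurin and DMSO were tested for all 12376 genes whose main probe set lay at or above the median level (an intensity near 102). The test was limma on log2 of the intensity plus 16, and a gene was called at a Benjamini-Hochberg adjusted p under 0.05 over all genes. Fold changes are on that scale and understate changes of low signals. At 4 h 1 of the 9 members was called, and it was lower, against 1.81% of all genes called (0.558% higher and 1.25% lower). At 10 h 5 were called, all lower, against 8.45% of all genes (3.77% higher and 4.69% lower). At 18 h 4 were lower and 1 higher, against 16% of all genes (8.10% higher and 7.90% lower). The 3 arrays of each group did not overlap for 3, 5 and 6 members at 4, 10 and 18 h, against 18.3%, 26.8% and 29.7% of all genes. The median log2 change of the 9 members was -0.18, -0.25 and -0.24 at 4, 10 and 18 h, beside 0.00, -0.02 and 0.00 for all genes.

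**Figure D1:**
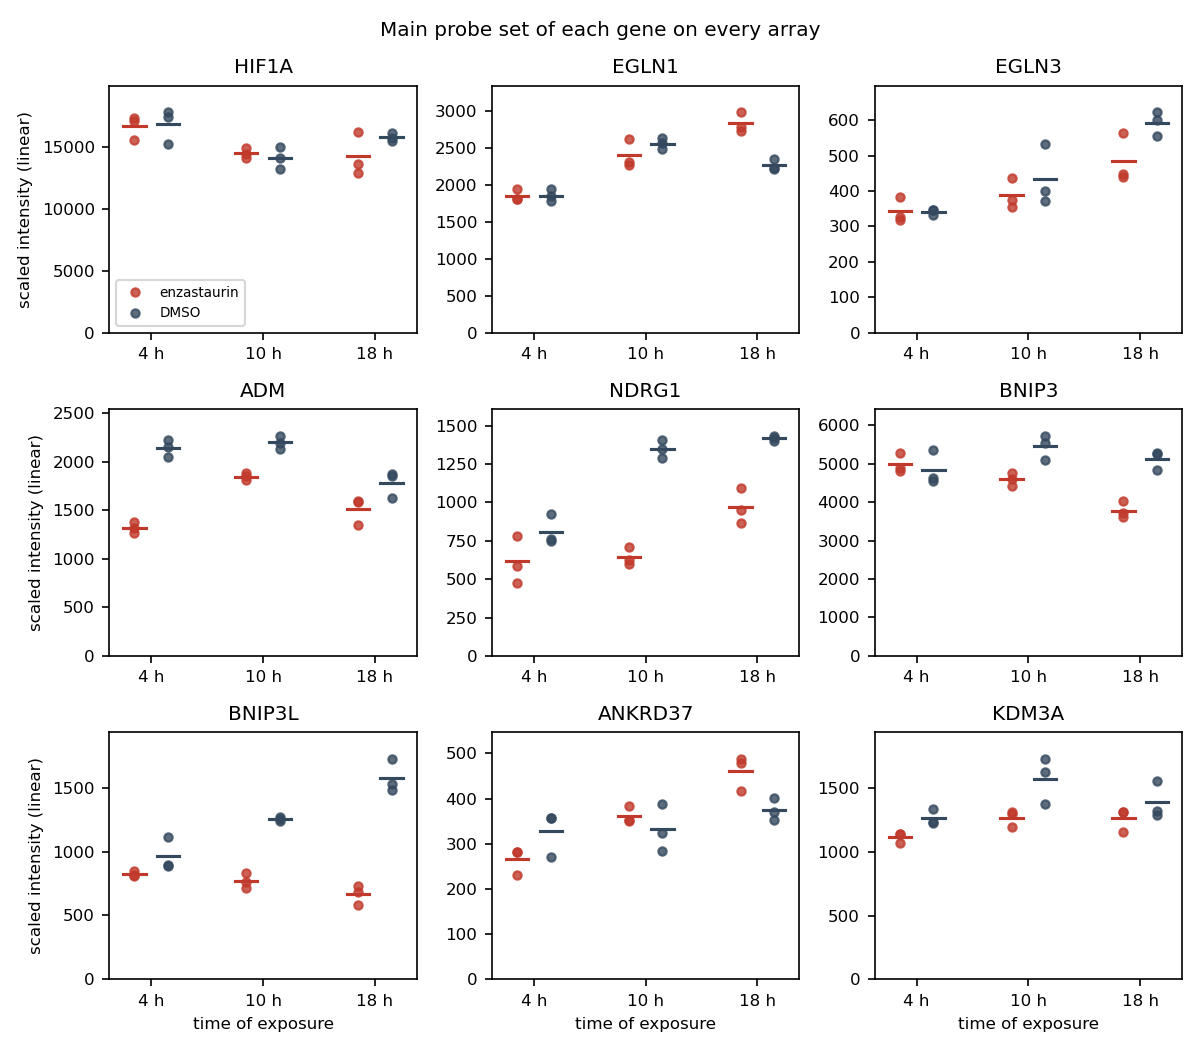
Scaled intensity (linear axis from 0) of the main probe set of each gene on all 18 arrays at 4, 10 and 18 h, with enzastaurin in red on the left and DMSO in dark blue on the right of each time. Points are single arrays and short lines group means of 3 arrays. BNIP3L is at 665 in enzastaurin cells against 1582 in DMSO cells at 18 h, while the HIF1A groups overlap at every time.

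**Figure D2:**
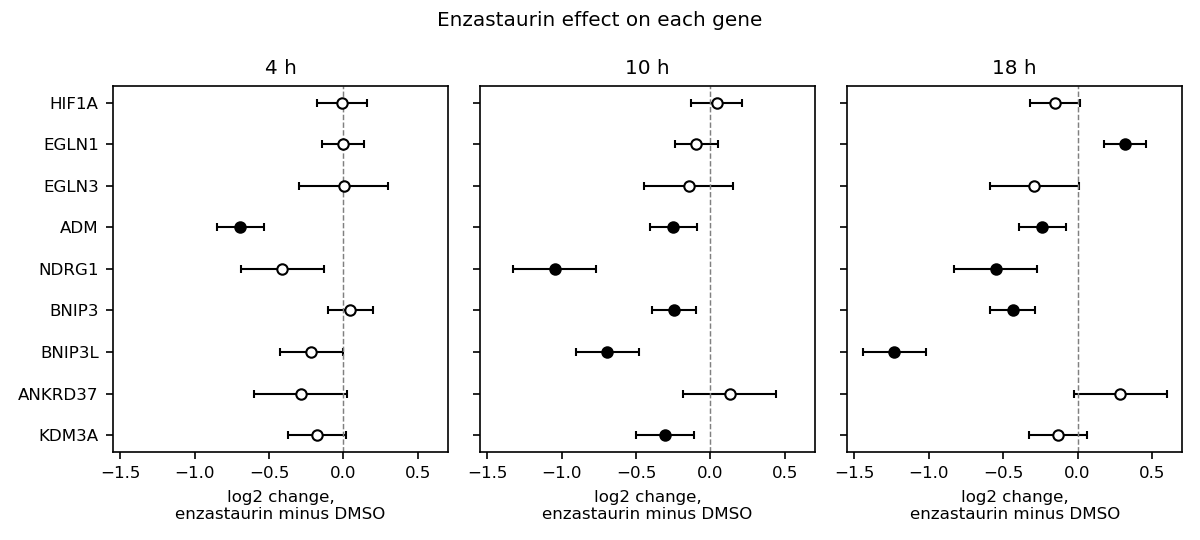
Log2 change, enzastaurin minus DMSO, of each gene at 4, 10 and 18 h with its 95% confidence interval from limma (3 arrays per group). Filled points are called at an adjusted p under 0.05 over all genes and open points are not. The largest change is that of ADM at 4 h, NDRG1 at 10 h and BNIP3L at 18 h. The ADM interval at 4 h overlaps those of NDRG1 and ANKRD37, and the NDRG1 interval at 10 h overlaps that of BNIP3L.

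The mRNA of the factor itself showed no called difference at any time. HIF1A had intensities of 15572, 17288 and 17088 on the 3 enzastaurin arrays at 4 h, against 17400, 15198.5 and 17755 on the DMSO arrays. At 10 h they were 14056, 14436 and 14916.5 with enzastaurin and 13160.5, 14120 and 14960 with DMSO. At 18 h they were 12877, 16168 and 13624 with enzastaurin and 16081, 15449 and 15712 with DMSO. The groups overlapped at all 3 times, and at 18 h the second enzastaurin array stood above all DMSO arrays while the other two lay below them. The log2 changes were -0.01 (95% confidence interval -0.18 to 0.16) at 4 h, 0.04 (-0.13 to 0.21) at 10 h and -0.15 (-0.32 to 0.02) at 18 h. Without the second enzastaurin array the 18 h change was -0.25 and was called (adjusted p = 0.0394). An mRNA level says nothing of the amount of HIF-1 alpha protein, which was not measured.

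EGLN1, the main oxygen-sensing hydroxylase gene, was higher in enzastaurin cells at 18 h. Its main probe set read 2986, 2737.5 and 2785 with enzastaurin against 2235, 2357 and 2214 with DMSO at 18 h. All 3 enzastaurin arrays lay above all 3 DMSO arrays. The log2 change was 0.32 (SE 0.07, 1.25-fold, adjusted p = 0.0022). At 4 h EGLN1 averaged 1857 ± 78.0 with enzastaurin and 1859 ± 81.5 with DMSO, and at 10 h 2405 ± 190 with enzastaurin and 2565 ± 74.1 with DMSO (SD, n = 3 each), with changes of 0.00 and -0.09 that were not called. A second EGLN1 probe set moved likewise at 18 h (1518, 1476 and 1367 with enzastaurin against 1020, 1082.5 and 1127 with DMSO, log2 change 0.43, adjusted p = 0.010 over all probe sets). Another showed 0.31 (adjusted p = 0.56), and the dimmest stayed at or below 127.5 on every array. The call was lost with array medians subtracted (adjusted p = 0.065) and with the 4 probe sets averaged (0.40), while leaving out any 1 array kept it. The EGLN1 effect at 18 h minus that at 4 h was 0.32 (adjusted p = 0.045), lost without any 1 of 9 of the 12 arrays (0.053 to 0.11).

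EGLN3, the hydroxylase gene that is strongly induced by hypoxia in many cells, had no called difference. At 18 h it read 449, 563 and 439 with enzastaurin against 622, 600.2 and 555 with DMSO, so that only the second enzastaurin array reached into the DMSO range. The changes on the main probe set were 0.00, -0.15 and -0.29 at 4, 10 and 18 h, with 95% confidence intervals of -0.30 to 0.30, -0.45 to 0.15 and -0.59 to 0.01. Its other probe set gave -0.58, -0.32 and -0.61 (adjusted p = 0.29, 0.58 and 0.078), and with both averaged the 18 h change was -0.45 and was called (adjusted p = 0.031).

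ADM, which encodes the secreted peptide adrenomedullin, gave the earliest change of the group. At 4 h its only probe set read 1373, 1315 and 1263 with enzastaurin against 2051, 2226 and 2145 with DMSO. The groups were far apart, and the log2 change was -0.69 (SE 0.08, 1.62-fold lower, adjusted p = 1.3e-05). By p-value this was the 14th of all 12376 genes at 4 h. The change was called under all 17 alternative settings, between -0.72 and -0.58. At 10 h the gap had narrowed, to 1878, 1848 and 1807 with enzastaurin against 2195, 2266 and 2130 with DMSO (-0.25, adjusted p = 0.046). At 18 h the values were 1587, 1595 and 1348 with enzastaurin and 1624.5, 1846 and 1870 with DMSO (-0.24, adjusted p = 0.039). The groups did not overlap at either time, but the 10 h call was lost whichever of the 6 arrays was omitted (adjusted p 0.075 to 0.16). The 18 h call was lost when DMSO replicate 2, DMSO replicate 3 or enzastaurin replicate 3 was omitted (0.13 to 0.20). With array medians subtracted neither call was made (0.34 at 10 h and 0.23 at 18 h). The effect at 10 h minus that at 4 h was 0.44 (adjusted p = 0.044), one of 1.41% of all genes called in this comparison, and the effect at 18 h minus that at 4 h was 0.46 (adjusted p = 0.011), where 7.78% of all genes and 4 of the 9 members (ADM, BNIP3, BNIP3L and EGLN1) were called. The positive sign means a smaller deficit later. The first of these was lost without any 1 of the 12 arrays (adjusted p 0.060 to 0.11), and both with array medians subtracted (0.44 and 0.27).

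NDRG1 was lower at 10 and 18 h. On its only probe set the 10 h intensities were 711, 628 and 596 with enzastaurin against 1291, 1350 and 1404 with DMSO. Every enzastaurin array lay well under every DMSO array, with a log2 change of -1.05 (SE 0.13, 2.07-fold lower, adjusted p = 3.2e-05). At 18 h the values were 949, 863.5 and 1093 with enzastaurin against 1401, 1435 and 1420.5 with DMSO, again without overlap (-0.55, SE 0.13, adjusted p = 0.0068). Both calls held under all 17 alternatives. At 4 h NDRG1 read 784, 478 and 585 with enzastaurin and 762, 923 and 745 with DMSO, where the first enzastaurin array lay inside the DMSO range. The 4 h change of -0.41 was not called (adjusted p = 0.15), although it was called without that array (-0.59, adjusted p = 0.015). For NDRG1 the 10 h effect minus the 4 h effect was -0.64 (adjusted p = 0.12) and the 18 h effect minus the 4 h effect -0.14 (adjusted p = 0.75), and neither was called. The first was called without enzastaurin replicate 2 of 4 h (adjusted p = 0.030).

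BNIP3L and BNIP3 encode related outer mitochondrial membrane proteins that recruit the autophagy machinery to mitochondria. BNIP3L carried the largest change of the 9 genes at 18 h. It read 685, 730.3 and 581 with enzastaurin against 1730, 1535 and 1481 with DMSO. The highest enzastaurin array was thus below the lowest DMSO array by more than the spread within either group, and the log2 change was -1.23 (SE 0.10, 2.35-fold lower, adjusted p = 2.8e-08). At 10 h the values were 764, 831 and 719 with enzastaurin against 1238, 1269 and 1256 with DMSO (-0.69, adjusted p = 1.5e-04). At 4 h they were 818, 810.5 and 847 with enzastaurin and 1115, 898 and 886 with DMSO, which did not overlap but gave no call (-0.22, adjusted p = 0.38). The 18 h effect differed from the 4 h effect by -1.02 (SE 0.14, adjusted p = 1.1e-04). The second BNIP3L probe set was also lower at 10 h (-0.69, adjusted p = 0.037) and 18 h (-0.71, adjusted p = 0.017). The difference between its effects at 18 and 4 h was -0.63 and was not called (adjusted p = 0.25). Both enzastaurin calls of the main probe set held under all 17 alternatives.

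BNIP3 changed less. At 18 h it read 3725, 4019.5 and 3605.5 with enzastaurin against 5250.4, 5269 and 4839 with DMSO, with no overlap (-0.44, SE 0.07, 1.35-fold lower, adjusted p = 2.1e-04). Its second probe set also fell at 18 h (-0.53, adjusted p = 0.012). At 10 h the main probe set read 4608, 4763 and 4416 with enzastaurin against 5090.5, 5540.3 and 5732.5 with DMSO (-0.25, adjusted p = 0.039), a call that held only when DMSO replicate 1 was the array omitted (adjusted p 0.059 to 0.16 in the other fits) and was lost with a replicate block (0.051). At 4 h it averaged 4993 ± 255 with enzastaurin and 4845 ± 450.3 with DMSO (SD, n = 3 each), a change of 0.05 that was not called. The BNIP3 effect at 18 h minus that at 4 h was -0.48 (adjusted p = 0.0050) on the main probe set and -0.45 (adjusted p = 0.24) on the other.

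ANKRD37 and KDM3A, the remaining 2 genes, showed little. ANKRD37 read 488, 416 and 479.8 with enzastaurin against 370.1, 353 and 401 with DMSO at 18 h. These groups did not overlap, yet the log2 change of 0.29 was not called (95% confidence interval -0.03 to 0.60, adjusted p = 0.23), and it was -0.047 with probe sets averaged. Its changes at 4 and 10 h were -0.29 and 0.13 (adjusted p = 0.45 and 0.72), and its other probe set stayed at or below 52.3 on every array. KDM3A was called lower at 10 h only, at 1302, 1314 and 1194 with enzastaurin against 1374, 1626 and 1732 with DMSO (-0.30, adjusted p = 0.047). That call likewise held only with DMSO replicate 1 omitted (adjusted p 0.077 to 0.21 otherwise) and was lost with a replicate block (0.058) and with both KDM3A probe sets averaged (0.70). KDM3A changes at 4 and 18 h were -0.18 and -0.13 (adjusted p = 0.45 and 0.39).

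Levels were also compared over time within each treatment; these comparisons share arrays with those above. In DMSO cells, the 18 h level was above the 4 h level for NDRG1 (log2 change 0.80, adjusted p = 2.2e-04), EGLN3 (0.77, adjusted p = 6.3e-04), BNIP3L (0.71, adjusted p = 5.0e-05) and EGLN1 (0.29, adjusted p = 0.0047), and below it for ADM (-0.27, adjusted p = 0.016). In enzastaurin cells, over the same interval, EGLN1 (0.61, adjusted p = 8.4e-07), ANKRD37 (0.77, adjusted p = 5.4e-04), NDRG1 (0.66, adjusted p = 7.8e-04) and EGLN3 (0.47, adjusted p = 0.016) rose. BNIP3 (-0.40, adjusted p = 2.5e-04), BNIP3L (-0.31, adjusted p = 0.026) and HIF1A (-0.23, adjusted p = 0.035) fell. For BNIP3L the main probe set thus moved in opposite directions in the 2 treatments, but its second probe set gave -0.10 in enzastaurin cells (adjusted p = 0.82) and 0.53 in DMSO cells (0.072). The BNIP3L fall was also lost with probe sets averaged (0.14) and with only the groups compared (0.073). Averaging probe sets ended the ANKRD37 rise in enzastaurin cells (0.14). With array medians subtracted, the EGLN3 rise in enzastaurin cells and the ADM fall in DMSO cells (0.15) were lost. The 18 h rise of EGLN1 in DMSO cells was lost under either of these 2 settings (adjusted p up to 0.14). Calls were frequent over time in general: 30.0% of all genes changed between 4 and 18 h in enzastaurin cells and 20.3% in DMSO cells, against 7 and 5 of the 9 members.

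Between 4 and 10 h, ADM (0.48, adjusted p = 1.6e-04) and EGLN1 (0.37, adjusted p = 6.9e-04) rose in enzastaurin cells, where 17.2% of all genes were called. In DMSO cells EGLN1 (0.46, adjusted p = 1.05e-04), NDRG1 (0.73, adjusted p = 8.6e-04), BNIP3L (0.38, adjusted p = 0.014) and KDM3A (0.31, adjusted p = 0.026) rose and HIF1A fell (-0.25, adjusted p = 0.036), with 18.1% of all genes called. For NDRG1 the enzastaurin cells showed 0.09 over that interval (adjusted p = 0.72). Its level in them stayed near that at 4 h until 10 h and was higher at 18 h. Both EGLN1 rises from 4 to 10 h were lost with its probe sets averaged (adjusted p = 0.38 in enzastaurin cells and 0.17 in DMSO cells). The HIF1A declines depended on single arrays, since each was lost in 4 of 6 fits that omit an array (adjusted p 0.083 to 0.14 in DMSO cells and 0.10 to 0.17 in enzastaurin cells). Leaving out 1 array ended the rise of KDM3A in 4 of 6 cases (adjusted p up to 0.13) and the 4 to 10 h rise of BNIP3L in DMSO cells in 2 of 6 (up to 0.067). It also ended the fall of BNIP3L and the rise of EGLN3 in enzastaurin cells in 3 of 6 each (up to 0.14 and 0.094) and the 18 h fall of ADM in DMSO cells in 2 of 6 (up to 0.10).

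**Figure D3:**
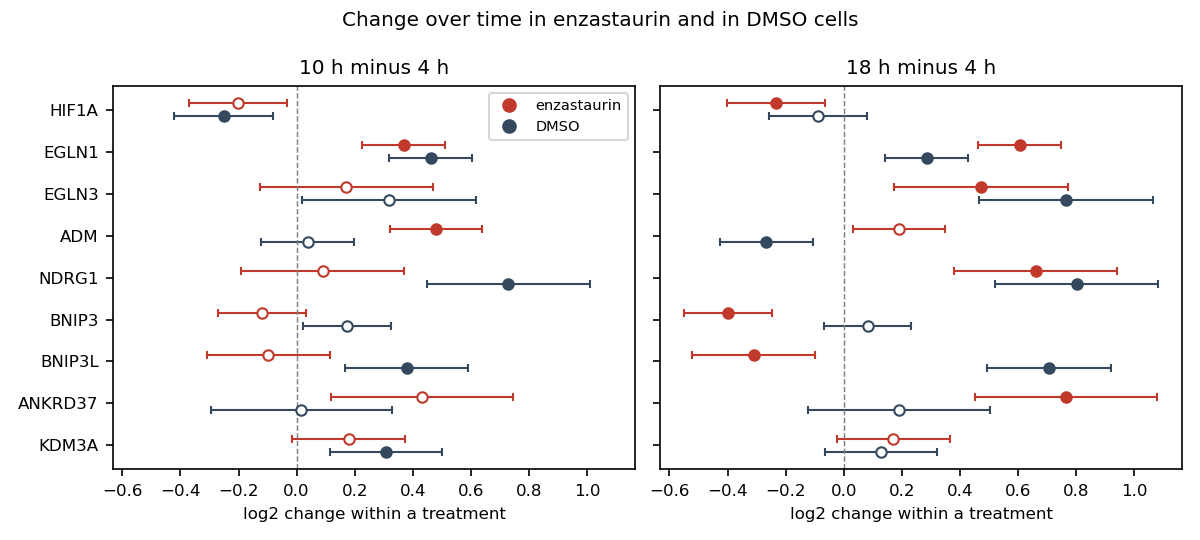
Log2 change within a treatment from 4 h to 10 h (left panel) and from 4 h to 18 h (right panel), enzastaurin in red above DMSO in dark blue for each gene, with 95% confidence intervals from limma (3 arrays per group). Filled points are called at an adjusted p under 0.05 over all genes. At 18 h BNIP3L lies at -0.31 in enzastaurin cells and at 0.71 in DMSO cells.

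The rest of the pathway was read from 12 lists of 81 other genes, chosen by role, of which 67 were tested. Of these 67, 4 were higher and 4 lower at 4 h, 5 higher and 4 lower at 10 h, and 9 higher and 10 lower at 18 h, with medians of 0.01, -0.06 and 0.01. Over all genes the shares called were 1.81%, 8.45% and 16% (at 4 h 0.558% higher and 1.25% lower, at 10 h 3.77% and 4.69%, at 18 h 8.10% and 7.90%), and the lists were chosen with results of these data known. VEGFA, the main angiogenic factor downstream of HIF, averaged 3895 ± 202 with enzastaurin and 1619 ± 153 with DMSO at 10 h (SD, n = 3 each), a log2 change of 1.26 (adjusted p = 9.3e-09), with 0.47 at 4 h and 1.21 at 18 h. DDIT4, an mTORC1 inhibitor induced by hypoxia and by other stresses, was higher by 2.25, 1.84 and 1.11 at 4, 10 and 18 h (adjusted p at most 1.7e-06). BHLHE40, a transcriptional repressor induced by HIF, was higher by 0.81, 0.90 and 1.35 (adjusted p = 4.4e-04, 3.2e-05 and 5.5e-08).

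Among HIF subunits and coactivators, none of 5 tested genes was called at 4 or 18 h. CREBBP, a histone acetyltransferase that coactivates HIF, was lower at 10 h (-0.30, adjusted p = 0.035), which was not called in 5 of the 6 fits that each omit an array (adjusted p up to 0.14) and was -0.055 with its probe sets averaged (0.94). EPAS1, which encodes HIF-2 alpha, showed -0.29, -0.52 and -0.15 at 4, 10 and 18 h (adjusted p = 0.65, 0.19 and 0.74), and ARNT -0.29, -0.16 and 0.02 (adjusted p = 0.57, 0.73 and 0.97). Of 6 tested genes of oxygen sensing and HIF degradation, 1 was called, RBX1, a ring subunit of cullin ubiquitin ligases (-0.42 at 18 h, adjusted p = 0.0054). Over all genes the shares called were 8.45% at 10 h and 16% at 18 h. VHL showed -0.24, 0.01 and 0.13 (adjusted p = 0.61, 0.98 and 0.71) and HIF1AN, the asparagine hydroxylase that inhibits HIF, -0.02, -0.38 and -0.09 (adjusted p = 0.98, 0.061 and 0.69). EGLN2 lay below the level filter. The HIF1AN change at 10 h was called under 5 of 17 alternatives, with probe sets averaged (adjusted p = 0.021), a replicate block (0.031), only the groups compared (0.041), only the brightest genes tested (0.046) or the first enzastaurin array omitted (0.040).

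Of the 4 feedback genes, 2 were higher and 1 lower at 4 h, and 1 was higher and 1 lower at each of 10 and 18 h. Over all genes 1.81%, 8.45% and 16% were called at these times. The lower gene CITED2, which competes with HIF-1 alpha for its coactivators, changed by -0.74, -0.53 and -0.68 (adjusted p = 0.0024, 0.013 and 8.2e-04). These 3 CITED2 calls were lost with its probe sets averaged (adjusted p 0.065 to 0.30), those at 4 and 10 h with array medians subtracted (0.091 and 0.093), and the 10 h call also without the third DMSO or the second enzastaurin array (up to 0.085). In the glucose list of 15, PFKFB3 fell by 0.57, 0.63 and 0.81 on the log2 scale (adjusted p = 0.0040, 5.8e-04 and 1.4e-05), the 4 h call being lost with array medians subtracted (0.15). HK2 (0.46 at 10 h, adjusted p = 0.0058, and 0.74 at 18 h, adjusted p = 2.4e-05) and the transporter gene SLC2A3 (1.66 at 18 h, adjusted p = 5.6e-06) were higher, though with its probe sets averaged HK2 gave -0.14 at 10 h. The HK2 call at 18 h was not rerun under the alternative settings. Counts higher and lower in the glucose list were 0 and 1 at 4 h, 1 and 1 at 10 h, and 3 and 1 at 18 h. EDN1, the vasoconstrictor endothelin, was lower at 10 and 18 h (-0.74 and -1.58; adjusted p = 0.0010 and 3.2e-08), opposite to VEGFA in the same list of secreted factors, where 2 of 4 were higher and 1 lower at each of these times. The counts of the glucose and secreted factor lists stand beside the shares of all genes given above (8.45% at 10 h and 16% at 18 h).

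Of 6 collagen hydroxylases and lysyl oxidases, 3 were lower at 18 h (7.90% of all genes) and none was called earlier, among them LOXL2 (-0.54, adjusted p = 2.0e-04) and PLOD2 (-0.28, adjusted p = 0.014). The LOXL2 call was lost with its probe sets averaged (0.63), and the PLOD2 call without the second DMSO or the second enzastaurin array (adjusted p up to 0.087). PINK1, the kinase of the other main route to mitophagy, was lower at 18 h (-0.62, adjusted p = 0.010), the only called one of 5 tested genes of its list. It was not called without the first DMSO or the second enzastaurin array (up to 0.067). Of the 3 other NDRG genes, NDRG4 was lower at 18 h (-0.90, adjusted p = 0.011), a call lost without the second DMSO or the third enzastaurin array (up to 0.064). Of 8 further JmjC oxygenase genes, related to KDM3A, only JMJD6 was called (0.29 at 18 h, adjusted p = 0.040), a call lost under 12 of 17 alternatives, among them the replicate block (0.054) and 5 of the 6 fits that each omit an array (up to 0.20). Beside these counts for the PINK1, NDRG and JmjC lists, 16% of all genes were called at 18 h. Of 4 genes listed with the adrenomedullin receptor, only 2, RAMP1 and RAMP3, passed the level filter, and neither was called at any time. The others of that list were not tested. CA12, the 1 tested gene of pH handling, was not called either. In the last list of 8, INSIG2 was higher at 18 h (0.63, adjusted p = 0.0018), and WSB1, a hypoxia-induced ubiquitin ligase component, was lower at 4 h (-0.44, adjusted p = 5.7e-04) and 18 h (-0.25, adjusted p = 0.011). The 4 h WSB1 call was lost with array medians subtracted or its probe sets averaged (adjusted p up to 0.37). Its 18 h call was not rerun under the alternative settings.

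**Figure D4:**
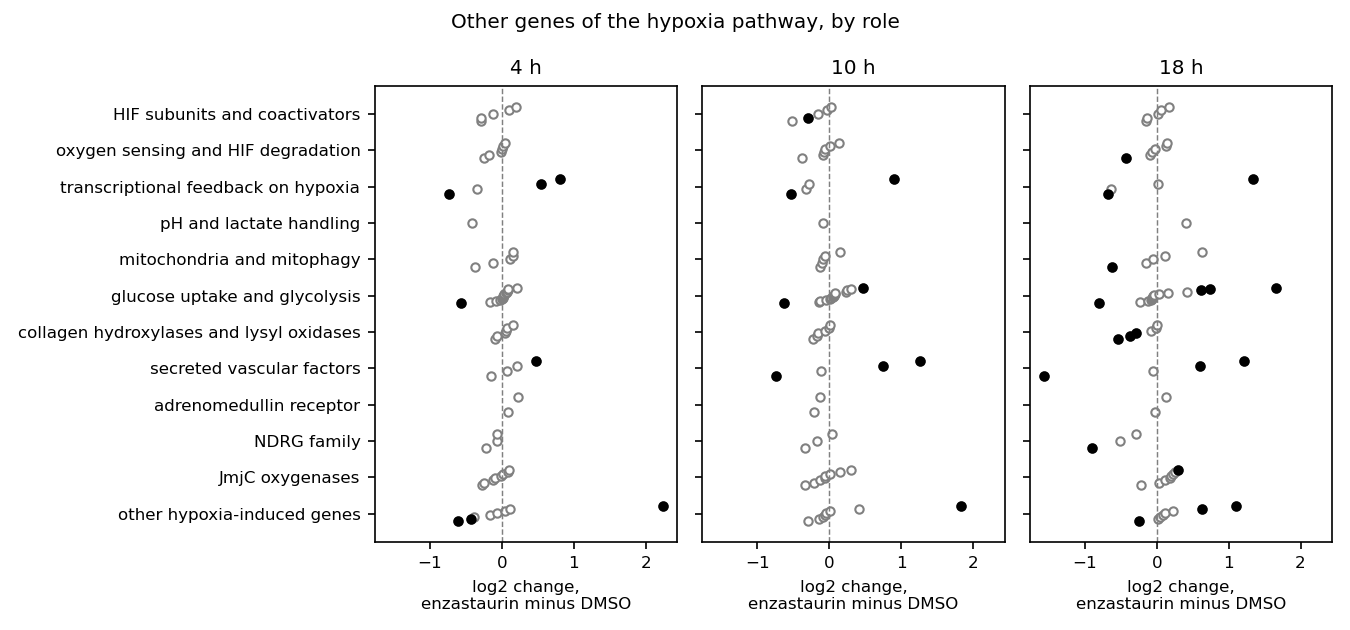
Log2 change, enzastaurin minus DMSO, of 67 other tested genes of the hypoxia pathway at 4, 10 and 18 h, grouped by role. Each point is 1 gene (3 arrays per group), filled where called at an adjusted p under 0.05 over all genes. Called genes lie on both sides of 0 in the feedback, glucose and secreted factor lists and in that of other hypoxia-induced genes.

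The genes whose levels followed the called members most closely over the 18 arrays were found by the root mean square difference of log2 values centred on each gene's own mean. For BNIP3L they were MBNL2 (0.14) and HEG1 (0.16), with 18 h changes of -1.34 and -1.04, beside a spread of 0.43 of BNIP3L about its own mean. For NDRG1 they were GSE1 (0.19) and IRF2BP2 (0.19), against 0.49. For ADM they were CEP76 (0.10) and WSB1 (0.13), against 0.27. BNIP3 lay closest to PRR34-AS1 (0.07) and GNG10 (0.08), EGLN1 to TRMT11 and SRPK2 (0.09 each), and KDM3A to PCDH17 (0.09) and LIX1L (0.10). The spreads of BNIP3, EGLN1 and KDM3A about their own means were 0.18, 0.23 and 0.17.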

How the data were processed

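Linear intensities were deposited for 54613 probe sets on 18 arrays. Per the submitters' processing notes, GCOS 1.2 was used. The 2% trimmed means of the deposited intensities lay between 498.2 and 498.5, so arrays had been scaled to a common level. Background handling is not given in the sources used here. Probe sets were named through the platform annotation, updated by gene identifier to RefSeq symbols (GRCh38.p14): 41091 had 1 symbol, 1801 several and 11721 none. The fit used limma 3.58.1 (R 4.3.3) on log2 of intensity plus 16, with 1 mean for each of 6 groups and a variance trend, and the code was checked on simulated data. Replicate numbers were not treated as pairs, since the labels do not say that they pair arrays. Same-numbered arrays correlated between -0.0954 and 0.182 after group means were removed, a range that cannot exclude pairing. The 10 members, the other lists and the naming rule were chosen with earlier results of these data known. That rule named all members, up to 2 called genes per list and time with the smallest adjusted p, 5 HIF regulators in any case, and 2 nearest genes per called member. VIM, KRT18 and the other markers were listed beside them. Outside the rule, HK2 and WSB1 at 18 h, RAMP1, RAMP3 and CA12 were also given, without alternatives run. Alternatives changed the offset, level filter, normalization, use of probe sets, variance trend, arrays fitted and replicate block, or left out 1 array. Motifs and figures were made with Python 3.11.15 and matplotlib 3.10.9.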

Additional observations from a re-analysis of the deposited data

Results flagged for a closer look

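Tests of whether the effect of enzastaurin differed between times picked out 5 results (limma, adjusted over all genes, 3 arrays per group). At 10 h minus 4 h, 1 of the 9 members was called, against 1.41% of all genes. At 18 h minus 4 h, 4 of the 9 were called, against 7.78% of all genes. The ADM effect at 10 h minus that at 4 h was 0.44 on the log2 scale (adjusted p = 0.0444), and at 18 h minus 4 h it was 0.46 (adjusted p = 0.0107). ADM was lower with enzastaurin at all 3 times, by less at the later ones. The 18 h minus 4 h difference was -1.02 for BNIP3L (adjusted p = 1.09e-04) and -0.48 for BNIP3 (adjusted p = 0.00503), whose levels with enzastaurin were lower at 18 h and not called different at 4 h. For EGLN1 it was 0.32 (adjusted p = 0.0454). Leaving out 1 array ended the EGLN1 call in 9 of 12 fits and the ADM call at 10 h minus 4 h in all 12. Both ADM calls and the EGLN1 call were lost with array medians subtracted. The second probe sets of BNIP3L and BNIP3 gave no call at 18 h minus 4 h (adjusted p = 0.25 and 0.24 over all probe sets). All 5 comparisons share the 4 h arrays. No cause was tested.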

How the results depend on the processing

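Of 1467 alternative values for single members, 1342 kept their side of the threshold without reversing a call (1313 of them with the same sign, 29 being uncalled values that changed sign), 116 lost a call, 8 gained one and 1 called value changed sign: KDM3A in DMSO cells, 10 h minus 4 h, was -0.088 with probe sets averaged. Of 669 values for other named genes, 623 did likewise (15 uncalled ones changing sign, among them ARNT at 10 h and EPAS1 at 4 and 18 h). Of the rest, 40 lost a call, 5 gained one and 1 called value changed sign, HK2 at 10 h (-0.14, probe sets averaged). Averaging probe sets turned the uncalled ANKRD37 effect at 18 h minus 4 h to -0.14, against 0.57. ADM at 4 h, NDRG1 and BNIP3L at 10 and 18 h and BNIP3 at 18 h kept their calls under every alternative run. Members called at 10 h numbered 2 with array medians subtracted, every probe set on its own, no level filter or no variance trend, and 3 with only the groups compared. With the replicate block they numbered 3, and 1 at 4 h and 5 at 18 h as without it. The labels do not say whether replicate numbers pair the arrays. Subtracting array medians left 3 at 18 h, 3 for DMSO 18 h minus 4 h, 2 for the effect at 18 h minus 4 h and 0 for that at 10 h minus 4 h; the last was also 0 with every probe set on its own, probe sets averaged, no level filter or no variance trend. Averaging probe sets left 2 for DMSO and 1 for enzastaurin, 10 h minus 4 h, where 1319 and 1277 of all 12376 genes were called. With array medians subtracted, all-gene calls numbered 1536 for DMSO 18 h minus 4 h. They numbered 546 for the effect at 18 h minus 4 h and 26 for that at 10 h minus 4 h. Leaving out 1 array gave 1 to 2, 2 to 4 and 4 to 6 at 4, 10 and 18 h, 0 to 1 and 3 to 4 for the effect differences at 10 and 18 h, 3 to 4 and 4 to 5 over time in DMSO cells and 2 to 2 and 4 to 6 in enzastaurin cells. Calls over all 12376 genes at 4, 10 and 18 h fell to 79, 443 and 1187 with medians subtracted, against 224, 1046 and 1981. With probe sets averaged they fell to 127, 630 and 1367, and with the replicate block they numbered 212, 1045 and 1946. Omitting 1 array gave 138 to 177, 653 to 791 and 1525 to 1824. For the effect differences at 10 and 18 h it gave 67 to 154 and 704 to 906, against 174 and 963 with all arrays. Over time in DMSO cells it gave 1503 to 1820 and 1991 to 2064, against 2243 and 2518. In enzastaurin cells the counts were 1443 to 2068 and 2989 to 3253, against 2125 and 3710. Subtracting medians moved the median change of all genes at 4 h to 0.12, against 0.00. The causes were not tested. Dim probe sets limit ANKRD37, KDM3A and EGLN1 averages.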
